A study of Mus musculus with 12 samples.

Results

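The nuclear genes of oxidative phosphorylation (OXPHOS) were examined in mouse mesenchymal stem cells (MSCs), with CUT&RUN signal of H3K27ac, the acetyl mark of active promoters and enhancers, and H3K27me3, the mark of Polycomb repression. In CUT&RUN an antibody directs a nuclease to the marked nucleosomes and the released DNA is sequenced. The genes were taken by symbol from the GENCODE annotation: autosomal protein-coding genes that begin with Nduf, Uqcr, Atp5 or Cox4 to Cox8, together with Sdha, Sdhb, Sdhc, Sdhd and Cyc1. This gave 92 gene records with 91 symbols, since Atp5o has a pair of records over the same region, out of 20807 autosomal protein-coding records, and 3 X-linked symbols (Cox7b, Ndufa1 and Ndufb11) were left out by the rule. The cells came from young mice of 3 to 5 months and old mice of 18 to 22 months, and all 4 groups were grown at 2% O2 in αMEM with 10% serum, with 3 libraries per mark and age. Strain, sex and the number of animals were not given in the sources used here. The labels do not say whether replicates came from separate animals, so p-values measure the spread between these libraries, which may be technical. A change in a bulk library can come from fewer cells that carry a mark or from less of the mark per cell, and these cannot be told apart.

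OXPHOS takes place in the inner mitochondrial membrane. Complexes I and II pass electrons from NADH and succinate to ubiquinone, complex III passes them to cytochrome c, complex IV reduces oxygen, and complex V, the ATP synthase, uses the resulting proton gradient to make ATP. Most subunits are encoded in the nucleus, by housekeeping genes with CpG-rich promoters that bind NRF1, GABPA and other ETS factors, YY1 and the oestrogen-related receptors. A few complex IV subunits, and Ndufa4 with them, have isoforms used in heart and skeletal muscle (Cox6a2, Cox7a1, Cox8b), in testis (Cox6b2, Cox7b2, Cox8c), or in lung and under low oxygen (Cox4i2, Ndufa4l2). MSCs in culture are known for their reliance on glycolysis, with more respiration during differentiation.

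The promoters were first described by sequence, because the regions analysed below lie over them. RefSeq windows of GRCm38.p6, from 250 bases before to 50 after the gene start, matched 74 of the 92 records in 73 distinct windows, and motifs were searched on both strands. The NRF1 motif (GCGCA, then any base, then GCGC) was in 24.7% of these windows, against 6.38% of 21237 protein-coding windows and 6.56% of 61 windows of cytosolic ribosomal protein genes. Its palindromic form can match both strands at a single position and was counted once. The ETS motif CCGGAAG was in 23.3% against 11.6% of all windows and 37.7% of the ribosomal windows. The YY1 motif AAGATGG was in 15.1% against 6.24% of all windows and 14.8% of the ribosomal windows. Of its 11 sites, 9 lay in the 50 bases after the gene start. TNAAGGTCA, bound by the oestrogen-related receptors, was in 4.11% against 1.03% of all windows and 4.92% of the ribosomal windows. The TATA box, searched as TATAAA, was in 9.59% against 12.6% and 6.56%. The median ratio of observed to expected CpG was 0.833 against 0.567 in all windows and 0.877 in the ribosomal windows. It was 0.382 in the 4 windows of tissue-restricted isoforms, of which none held an NRF1, ETS or YY1 motif. The 18 NRF1, 13 ETS and 2 receptor sites that ended before the gene start were inside the H3K27ac region of their gene. So were 5 of 6 TATA sites, the exception being Cox7b2, which had no such region. This was nearly fixed in advance, since the regions were chosen for lying at the TSS, and it does not link a motif to the mark. At least 1 NRF1, ETS or YY1 motif was in 40 of the 73 windows (54.8%), against 21.7% of all windows and 52.5% of the ribosomal windows. By this measure the OXPHOS windows were near those of the ribosomal protein genes. The sequences below show such sites at genes of every complex, because these windows held them more often than protein-coding windows at large, with the motif in capitals. The NRF1 sites are shown first.
Sdha (chr13:74350276-74350305, minus strand): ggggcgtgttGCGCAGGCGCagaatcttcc
Sdhd (chr9:50603909-50603938, minus strand): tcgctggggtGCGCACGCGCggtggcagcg
Ndufs5 (chr4:123718265-123718294, minus strand): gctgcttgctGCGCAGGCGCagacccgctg
Ndufa8 (chr2:36049349-36049378, minus strand): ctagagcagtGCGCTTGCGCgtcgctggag
Cox6a1 (chr5:115349056-115349085, minus strand): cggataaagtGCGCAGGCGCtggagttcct
Atp5k (chr5:108434430-108434459, minus strand): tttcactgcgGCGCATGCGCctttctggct
The ETS sites follow, and the last line holds the receptor site of Atp5g3.
Ndufaf1 (chr2:119662835-119662864, minus strand): gcgggaccacaaCCGGAAGcgtggcgaacc
Ndufs3 (chr2:90904730-90904759, minus strand): cccgcgtccgcCCGGAAGaagagtcactgc
Uqcr11 (chr10:80406869-80406898, minus strand): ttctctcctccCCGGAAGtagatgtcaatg
Cox6b1 (chr7:30626124-30626153, minus strand): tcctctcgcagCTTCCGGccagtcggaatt
Atp5g3 (chr2:73911359-73911388, minus strand): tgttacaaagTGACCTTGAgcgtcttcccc

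The libraries held 2750953 to 5541429 reads for H3K27ac and 3622108 to 9947515 for H3K27me3, and old replicate 2 was the shallowest of both marks. Levels are given as density, the reads per kb of region after scaling to library size (RPM per kb). Outside called regions the density was 0.244 to 0.278 for H3K27ac and 0.158 to 0.218 for H3K27me3. The labelled cell type was checked by its markers. All 12 genes of an MSC list, among them Pdgfra, Prrx1, Cxcl12 and Lepr, had an H3K27ac region at the TSS. Of the other markers, 0 of 6 blood, 0 of 4 endothelial and 0 of 6 muscle markers had one, whereas 2 of 4 adipocyte markers did (Fabp4 and Lpl). An H3K27me3 region lay at 2 of the 12 MSC genes, Lepr and Nt5e. It lay at 4 of 6 blood, 3 of 4 endothelial, 6 of 6 muscle and 3 of 4 adipocyte markers. Of the 12 H3K27ac regions of the MSC list 0 were called between ages by limma, edgeR or DESeq2, where limma called 0.0833% of regions at a TSS. At an unadjusted p-value under 0.05 there were 0 in limma, 1 in edgeR and 0 in DESeq2. In limma 7.83% of regions at a TSS reached this, and 12 regions cannot be told from that share.

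The question of the series was how age alters chromatin and metabolism in MSCs, and the OXPHOS genes were first placed in the 2 marks. An H3K27ac region lay within 1 kb of the TSS in 89 of 92 records (96.7%), compared with 53.2% of all autosomal protein-coding genes and 86.2% of 87 cytosolic ribosomal protein genes, another housekeeping set. The 3 genes without one were Cox6a2, Cox7b2 and Cox8c, isoforms of muscle and testis. All 84 records outside the tissue-restricted class had an H3K27ac region, and 5 of the 8 restricted isoforms had one. In 87 records the TSS itself lay in the region. The exceptions were Cox7a2l, which helps to form respiratory supercomplexes and lay 0.83 kb from its region, and the muscle isoform Cox8b, at 0.055 kb. H3K27me3 showed the reverse picture, with a region at 8 records (8.70%) against 34.4% of all genes and 11.5% of ribosomal protein genes. Of these, 6 carried both marks, Cox6a2 and Cox8c carried H3K27me3 only, and Cox7b2 carried neither. The authors' table gave each of these regions the state of both ages, so none was listed for young or old MSCs alone.

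**Figure D1:**
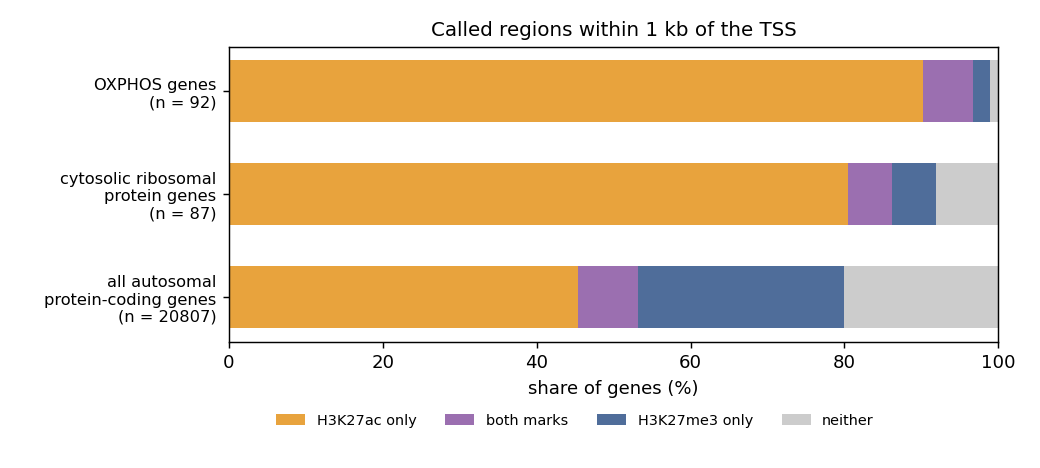
Share of genes, in percent, by the called regions within 1 kb of the TSS, for 92 OXPHOS gene records, 87 cytosolic ribosomal protein genes and 20807 autosomal protein-coding genes. H3K27ac alone accounts for 90.2% of OXPHOS genes and 45.4% of all genes.

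The 88 distinct H3K27ac regions were long rather than dense. Their median length was 15 kb, as in ribosomal protein genes, against 10.0 kb over 8408 regions at a protein-coding TSS, and their median density was 1.18 in both cases. Long regions often hold neighbours, and 56 of the 88 also covered the TSS window of at least 1 other protein-coding gene. In 22 records (23.9%) the TSS of an opposite-strand gene lay within 1 kb upstream, against 6.97% of all genes and 10.3% of ribosomal protein genes. Examples were Ndufa7 with the ribosomal gene Rps28, Sdhd with the import factor Timm8b, Sdha with Ccdc127, and the assembly factor Ndufaf7 with Cebpz. The signal of such a region belongs to the pair of genes and cannot be divided between them. Density ranged from 0.713 in Cox7a1, at a percentile of 0.297 among regions at a TSS, to 1.98 in Ndufa9, a complex I accessory subunit whose region was 1.5 kb long. By complex, the median was highest in complex III at 1.395 and lowest in complex II at 1.03, with 1.17 in complex I, 1.13 in complex IV and 1.25 in complex V. Restricted complex IV isoforms had a median of 0.977 and broadly used subunits 1.18. Each median stood well above the density outside regions, but the regions were called on these same libraries, so this is no independent support.

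With age, H3K27ac at the OXPHOS genes showed no change that passed the test. Of 88 regions, 0 were called by limma at an adjusted p-value under 0.05, where 0.0822% of all 31617 regions and 0.0833% of regions at a TSS were called. By edgeR and DESeq2 on the recovered reads 0 were called as well (background 0.304% and 0.019%). At an unadjusted p-value under 0.05 there were 7 (7.95%), against 9.6% of all regions and 7.83% of regions at a TSS. Of these 2 were higher and 5 lower in old MSCs, where 4.86% and 2.96% of regions at a TSS were so. Old and young libraries did not overlap in 10 regions (11.4%), against 14.5% of all regions and 13.6% at a TSS. Old libraries lay above in 5 and below in 5, against 8.19% and 5.39% of regions at a TSS. The median log2 fold change was 0.02, against 0.02 for regions at a TSS and -0.0028 for all regions, and 49 of 88 (55.7%) lay above 0, against 55% of regions at a TSS. These shares were close to the background, except that the split by direction at the unadjusted threshold was the reverse. There 2 higher and 5 lower are too few to be told from the background. On the signal as deposited, in which the median of all regions shifted by -0.12, the median of the OXPHOS regions was -0.10 and that of regions at a TSS -0.09, with 25% of the OXPHOS regions above 0. The direction thus moved with the scaling for the OXPHOS genes and for regions at a TSS alike. Per library the median density over the 88 regions was 1.17 ± 0.0803 in young and 1.155 ± 0.0334 in old MSCs (SD, n = 3), a difference smaller than the spread of the replicates.

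**Figure D2:**
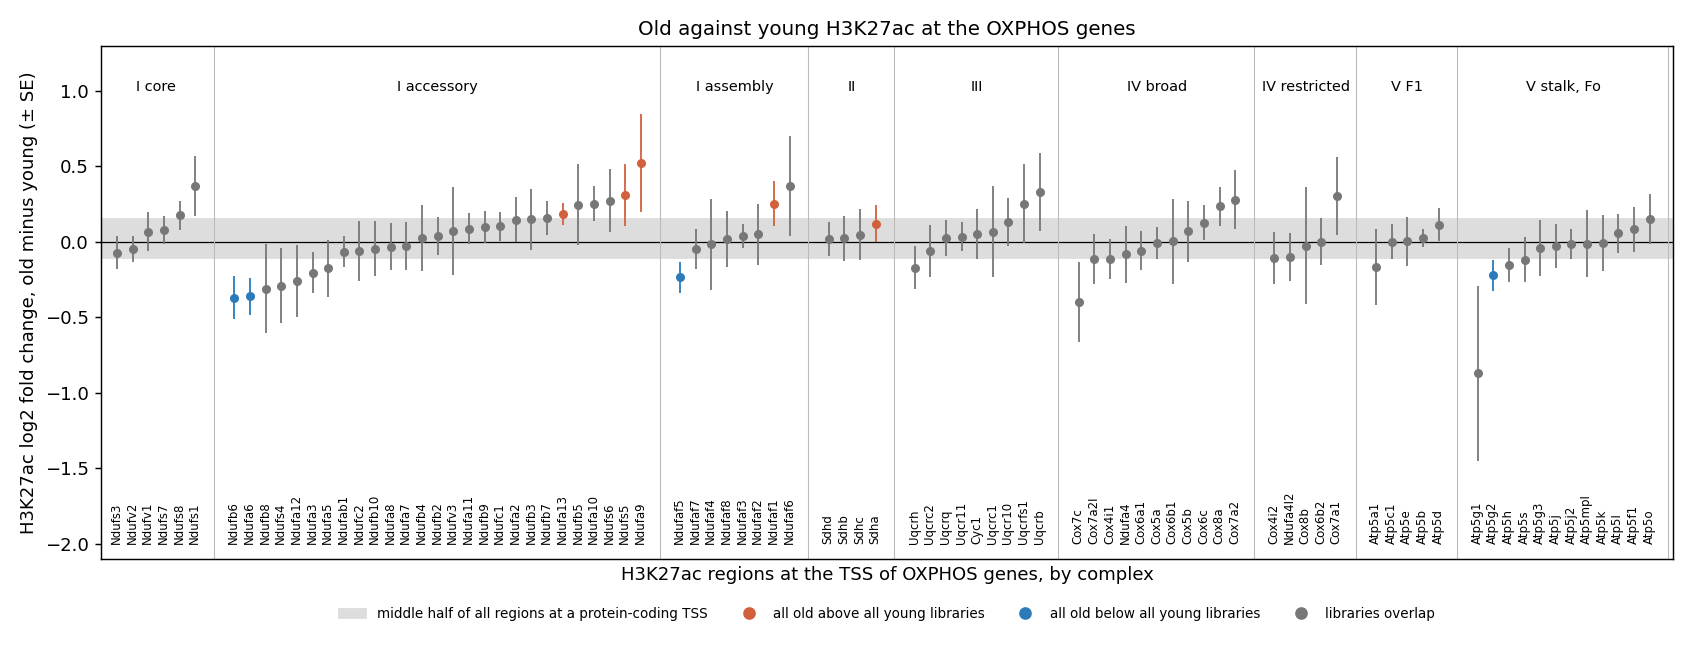
Log2 fold change of H3K27ac, old minus young, with its limma standard error, for 87 of the 88 regions at OXPHOS genes, sorted within each class of subunit. Most points lie in or near the grey band, which runs from the lower to the upper quartile of regions at a protein-coding TSS. Coloured points mark 9 of the 10 regions whose old and young libraries do not overlap.

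Complex I gave 8 of the 10 regions without overlap, 4 in each direction. These were 19% of its 42 regions, against 13.6% of regions at a TSS, and the difference between these shares was not tested. Its median log2 fold change was 0.04. By class, the 7 core subunits had a median of 0.07 and reached up to 0.37, the 27 accessory subunits from -0.37 to 0.52 with a median of 0.04, and the 8 assembly factors from -0.24 to 0.37 with a median of 0.03. Among those with higher values in old MSCs, Ndufa9 had a density of 1.63, 1.54 and 1.53 in young replicates 1 to 3 and 1.73, 2.36 and 3.06 in old replicates 1 to 3. The old libraries were above the young ones but far apart from each other, and the region held 8 to 18 reads (log2 fold change 0.52, SE 0.32, limma adjusted p = 0.644). Ndufs5, an accessory subunit whose promoter carries the NRF1 site shown above, had 1.07, 0.923 and 0.921 in young and 1.09, 1.36 and 1.19 in old libraries (0.31, SE 0.20, adjusted p = 0.669). The gap between the groups was narrow, from 1.07 in young replicate 1 to 1.09 in old replicate 1. The assembly factor Ndufaf1 had 0.808, 0.930 and 0.868 against 1.03, 0.939 and 1.15 (0.25, SE 0.15, adjusted p = 0.619). Ndufa13, an accessory subunit of the membrane arm, gave tight groups over 80.5 kb, with 1.23, 1.28 and 1.11 in young and 1.39, 1.36 and 1.35 in old libraries (0.18, SE 0.07, adjusted p = 0.407). Its region also covered the TSS of Tssk6 and Yjefn3.

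The other direction was led by Ndufb6, an accessory subunit of the membrane arm, with 1.38, 1.32 and 1.21 in young and 0.911, 0.944 and 1.18 in old libraries (log2 fold change -0.37, SE 0.14, limma adjusted p = 0.369). Old replicate 3 almost met young replicate 3. Ndufa6, another accessory subunit, had near-identical young libraries at 1.94, 1.93 and 1.93, and 1.59, 1.22 and 1.74 in old ones (-0.36, SE 0.12, adjusted p = 0.276, the lowest of the 88). The young values of Ndufa6 were closer together than the old ones, and without old replicate 2, the shallowest library, its log2 fold change was -0.21 (adjusted p = 0.701). Ndufaf5, an assembly factor that modifies the core subunit Ndufs7, had 1.24, 1.12 and 1.05 against 1.00, 0.997 and 0.895 (-0.24, SE 0.10, adjusted p = 0.453). The regions of these 3 genes covered the TSS of 2 or 3 other genes each, such as Smdt1, part of the mitochondrial calcium uniporter, with Ndufa6. A core subunit of the electron input arm, Ndufs1, lay at 1.28, 1.04 and 1.16 in young and 1.12, 1.73 and 1.77 in old libraries (0.37, SE 0.20, adjusted p = 0.561), with old replicate 1 inside the young range. Ndufv1, the NADH-binding core subunit, was 0.991 ± 0.0592 in young and 1.04 ± 0.0711 in old MSCs (SD, n = 3), and Ndufa10, an accessory subunit, moved from 0.810 ± 0.07 to 0.969 ± 0.119 with overlap (0.25, SE 0.12, adjusted p = 0.487).

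Of the 4 regions of complex II and the 9 of complex III, 0 reached an unadjusted p-value under 0.05, where 7.83% of regions at a TSS did; so few regions cannot be told from that share. All 4 succinate dehydrogenase genes had a log2 fold change above 0, but the highest was 0.12. Sdha, the flavoprotein subunit, was at 0.803, 0.814 and 0.771 in young and 0.836, 0.877 and 0.886 in old libraries, without overlap (0.12, SE 0.12, limma adjusted p = 0.808). This was a small step between tight groups, and the region is shared with Ccdc127. Sdhb, the iron-sulphur subunit, was 0.980 ± 0.0808 in young and 1.00 ± 0.181 in old MSCs (SD, n = 3). In complex III, 7 of 9 regions lay above 0 and 0 were free of overlap, against 55% and 13.6% of regions at a TSS. So few regions cannot be told from these shares. Uqcrc1, a core protein of that complex, was 1.47 ± 0.367 in young and 1.57 ± 0.487 in old MSCs, and Cyc1, cytochrome c1, was 1.36 ± 0.110 and 1.43 ± 0.226 (SD, n = 3). Uqcrfs1, the Rieske iron-sulphur protein, was 1.12 ± 0.180 and 1.36 ± 0.360 (SD, n = 3; 0.25, SE 0.26, adjusted p = 0.815). The log2 fold change of Uqcrfs1 was 0.05 without old replicate 2 and 0.14 without young replicate 1. In each of these 3 genes the libraries of a group differed by more than the groups did.

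Complex IV had 16 regions and none without overlap, against 13.6% of regions at a TSS, and so few regions cannot be told from that share. Its fold changes ran from -0.40 to 0.30. The lowest was Cox7c, with 2.01, 2.50 and 1.48 in young and 1.66, 1.05 and 1.78 in old libraries (SE 0.26, limma adjusted p = 0.675). Its log2 fold change was -0.18 without old replicate 2 and -0.23 without young replicate 2. The highest was Cox7a1, the muscle isoform, with 0.806, 0.654 and 0.460 in young and 0.638, 0.839 and 0.883 in old libraries (SE 0.26, adjusted p = 0.755), and 0.10 without young replicate 3. Both were regions of few reads, 8 to 37 in Cox7c and 16 to 37 in Cox7a1. Cox7a2, the broadly used isoform of the same subunit, was 0.975 ± 0.160 in young and 1.20 ± 0.320 in old MSCs (SD, n = 3; 0.28, SE 0.19, adjusted p = 0.689), and Cox7a2l was 1.26 ± 0.141 and 1.17 ± 0.248. Cox7a1 was thus the lowest of the 3 genes at both ages. Cox8a, the broad isoform, was 1.09 ± 0.150 and 1.27 ± 0.114 (0.23, SE 0.13, adjusted p = 0.566), whereas Cox8b spread from 0.510 to 1.42 with 5 to 19 reads. The pairs with a low-oxygen isoform were closer to each other. Cox4i1 was 1.13 ± 0.0526 in young and 1.04 ± 0.0676 in old MSCs, and its low-oxygen isoform Cox4i2 was 1.02 ± 0.275 and 0.930 ± 0.0696 (SD, n = 3). Ndufa4 was 1.26 ± 0.0866 and 1.19 ± 0.121, and Ndufa4l2, a target of the oxygen sensor pathway, was 1.26 ± 0.129 and 1.17 ± 0.0978 in a region shared with the serine enzyme gene Shmt2. Both members of each pair thus had levels that overlapped between libraries. Cox6a1 was 1.13 ± 0.163 and 1.08 ± 0.0448, Cox6b1 was 1.56 ± 0.492 and 1.53 ± 0.387, its testis isoform Cox6b2, next to Kmt5c, was 1.03 ± 0.105 and 1.03 ± 0.0857, and Cox5a was 1.15 ± 0.0410 and 1.15 ± 0.121. None of these 4 moved beyond its spread.

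Complex V held the fold change of the greatest size in the module, which rested on a single library. Atp5g1, Atp5g2 and Atp5g3 encode the same mature c subunit, which forms the rotor ring. Atp5g1 had 1.63, 1.73 and 1.41 in young libraries and 1.37, 0.225 and 1.67 in old libraries (log2 fold change -0.87, SE 0.58, limma adjusted p = 0.697). Old replicate 2, the shallowest library, held 2 reads in this 3.5 kb region, fewer than the floor of 3 reads, and without it the log2 fold change was -0.06. Without old replicate 1 or 3 it was -1.21 or -1.34. Atp5g2 was steadier, with 1.75, 1.74 and 1.56 in young and 1.43, 1.41 and 1.49 in old libraries and no overlap (-0.22, SE 0.10, adjusted p = 0.495), and no other TSS lay in its 26.0 kb region. Atp5g3 was 1.28 ± 0.0768 in young and 1.26 ± 0.295 in old MSCs (SD, n = 3). Thus all 3 c subunit genes carried H3K27ac at both ages. Of the catalytic head, Atp5a1 was 1.55 ± 0.352 and 1.39 ± 0.388, and Atp5b was 1.25 ± 0.0538 and 1.27 ± 0.0643 in a region of 152.5 kb that also held Naca, Ptges3, Baz2a and Rbms2. Together with Atp5c1, Atp5d and Atp5e of the central stalk, these made 5 genes that ran from -0.17 to 0.11, with 4 above 0. Of the 12 regions of the other stalk and membrane subunits 3 lay above 0, the highest at 0.15. Among regions at a TSS 55% lay above 0, and the difference from that share was not tested. Over the 10 subunits chosen to stand for the 5 complexes, fold changes lay between -0.17 and 0.37 and the lowest adjusted p-value was 0.561.

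**Figure D3:**
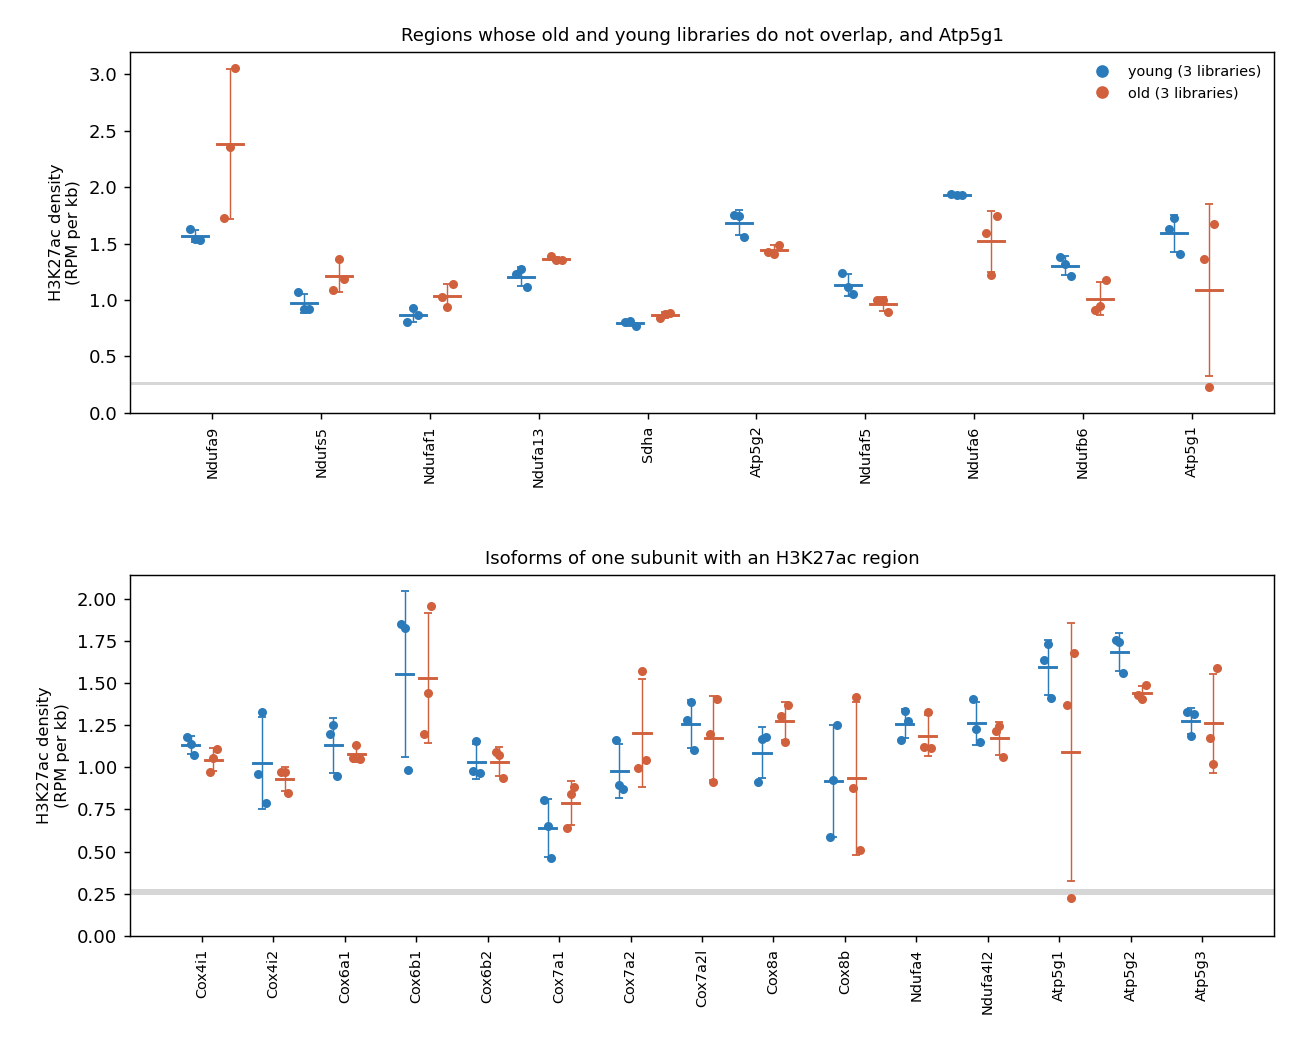
H3K27ac density in RPM per kb for each library (points), with the mean and SD of 3 young (blue) and 3 old (orange) libraries; the grey band is the range of density outside called regions. The upper panel holds 9 of the 10 regions without overlap and Atp5g1, where old replicate 2 alone falls below the band, and the lower panel holds isoforms of the same subunit, with Cox7a1 lowest.

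H3K27me3 lay at 8 OXPHOS genes, and 0 of the 8 regions were called by limma, against a background of 0.488% of all 28047 regions and 0.728% of 5491 regions at a TSS. By edgeR 1 was called, Ndufa8, and by DESeq2 0 (background 1.4% and 0.507%). The log2 fold change was below 0 in 7 of 8, as it was in most regions at a TSS, of which 35.9% lay above 0. The median was -0.15, against -0.06 at a TSS and -0.01 over all regions. At an unadjusted p-value under 0.05 there were 3, all lower in old MSCs, against 13.9% of all regions and 17.6% at a TSS, or 14.1% for the lower direction alone. Libraries did not overlap in 1 region, that of Ndufa8 (background 19.1% and 22.5%, and 16.5% at a TSS for old below young). Old replicate 3 was the lowest of the 6 libraries in 6 of the 8 regions; its share of reads in regions was also the lowest of the mark, at 53.8%, against 59.6% to 66.6% in the other 5. Its part in the lower values was not tested, but without it the median was -0.11. Ndufa8, an accessory subunit with an NRF1 site at its start, had 2.07, 2.17 and 2.10 in young and 1.94, 1.50 and 1.46 in old libraries (-0.38, SE 0.10, limma adjusted p = 0.0792). It was the nearest to the threshold, and it was called on the signal as deposited and without old replicate 1, with log2 fold changes of -0.50 and -0.51.

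The other 7 regions overlapped between ages. Atp5g1 had 2.06, 2.26 and 2.39 in young and 2.11, 1.97 and 1.66 in old libraries (-0.23, SE 0.08, limma adjusted p = 0.190). Uqcrfs1 had 1.62, 1.81 and 2.11 against 1.71, 1.58 and 1.41 (-0.23, SE 0.09, adjusted p = 0.243). Both stood in the upper part of H3K27me3 regions at a TSS by density, at percentiles of 97.9 and 92.9. Cox6a2, the muscle isoform, was 1.61 ± 0.0850 in young and 1.42 ± 0.173 in old MSCs (-0.18, SE 0.10, adjusted p = 0.419), and Ndufa10 was 1.56 ± 0.0529 and 1.43 ± 0.159 (SD, n = 3; -0.12, SE 0.09, adjusted p = 0.592). Atp5k, subunit e of the ATP synthase, was 0.860 ± 0.108 and 0.951 ± 0.249 (0.11, SE 0.22, adjusted p = 0.866), and Cox7c was 0.860 ± 0.0336 and 0.851 ± 0.199 (-0.04, SE 0.17, adjusted p = 0.947). The testis isoform Cox8c was the lowest, at 0.571 ± 0.0997 and 0.569 ± 0.108, close to the bottom of such regions (percentile 1.31). Of the members with H3K27me3 alone, Cox6a2 thus had the denser mark in every library.

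**Figure D4:**
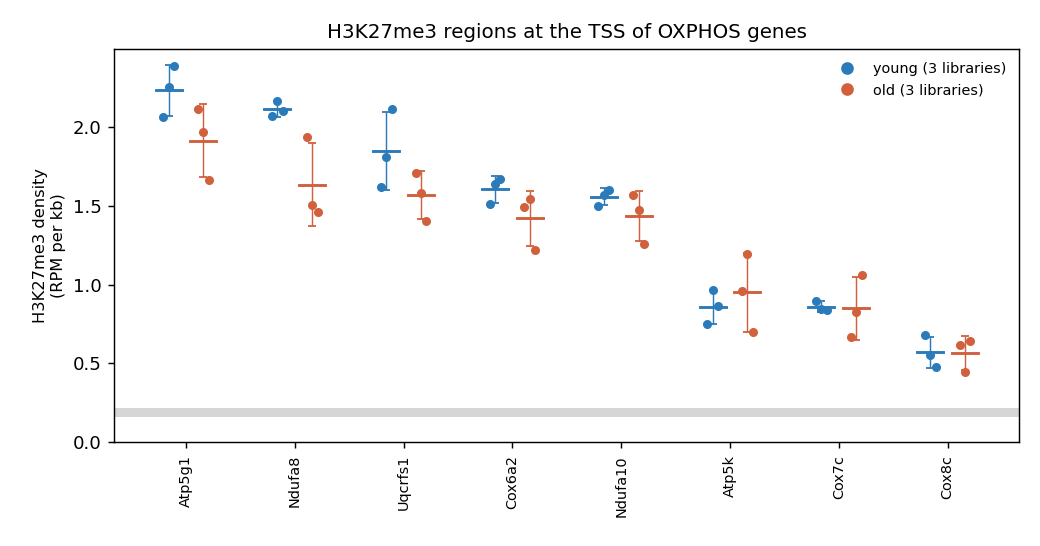
H3K27me3 density in RPM per kb for each library (points) at the 8 OXPHOS genes with a region, with the mean and SD of 3 young (blue) and 3 old (orange) libraries; the grey band is the range of density outside regions. Only at Ndufa8 do all old libraries lie below all young ones.

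In the 6 genes with both marks, the H3K27me3 region lay on the upstream side of the TSS in all 6 and the H3K27ac region covered the TSS and the start of the gene. In 5 the TSS was outside the H3K27me3 region, 0.095 to 0.639 kb from its edge, and at Atp5g1 it was 0.169 kb inside. The regions shared 1.0 to 3.0 kb in 4 genes (Ndufa8, Ndufa10, Atp5g1 and Atp5k) and touched without a gap in Cox7c and Uqcrfs1. Edges are placed on a grid of 500 bp. The H3K27me3 region of Atp5g1 (mm10, chr11:96075501-96720000) was a domain of 644.5 kb with the Hoxb genes, which specify position along the body, and its H3K27ac region was chr11:96073501-96077000. That of Uqcrfs1 (chr13:30546001-30805000, 259 kb) also held Irf4 and Dusp22. That of Ndufa8 (chr2:36049501-36114000) held the neural transcription factor gene Lhx6 and the opposite-strand neighbour Morn5, and that of Ndufa10 (chr1:92474001-92527000) held the olfactory receptor genes Olfr1414, Olfr1415 and Olfr1416. The fold changes above for these 4 genes are thus those of whole domains, most of which lie outside the OXPHOS gene. The regions of Atp5k (chr5:108435001-108440000, 5.0 kb) and Cox7c (chr13:86047501-86057500, 10.0 kb) held no other TSS. Neither did those of Cox6a2 (chr7:128188001-128233500, 45.5 kb) and Cox8c (chr12:102898501-102917000, 18.5 kb), in which the TSS lay inside the mark. With only the 4 regions that held no other gene, the median log2 fold change was -0.02.

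**Figure D5:**
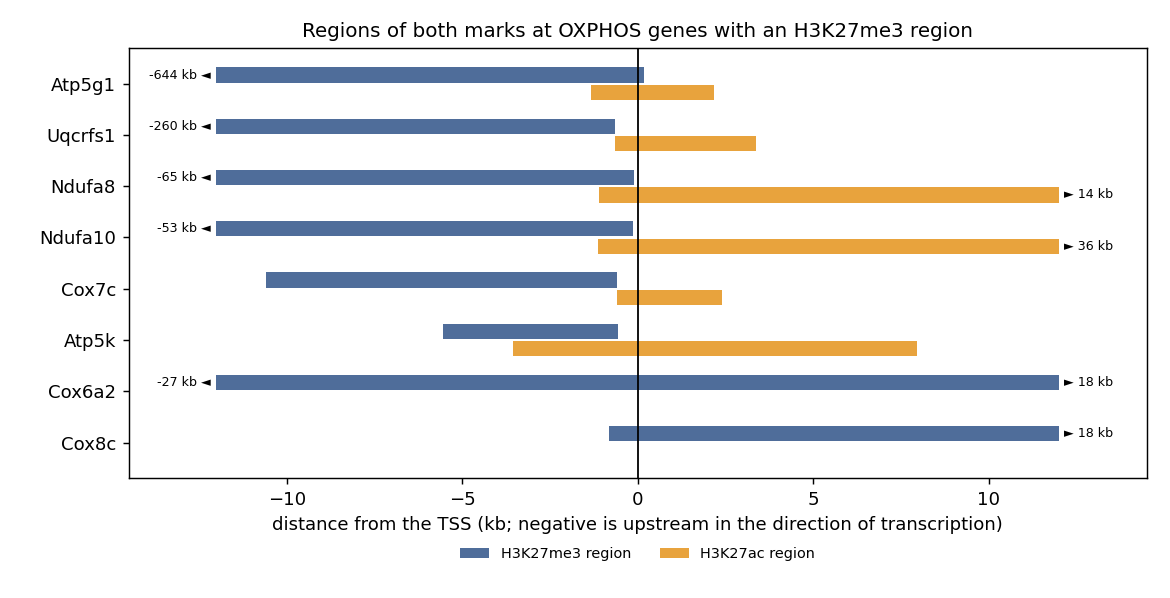
Position of H3K27me3 (blue) and H3K27ac (orange) regions around the TSS of the 8 OXPHOS genes with an H3K27me3 region, in kb from the TSS, with negative values upstream; labels give where a region ends beyond the plot. In 6 genes H3K27me3 lies upstream and H3K27ac over the start, and Cox6a2 and Cox8c have H3K27me3 only.

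The wider pathway was read from 3 further lists. Of 36 assembly factors and carriers, 35 had an H3K27ac region, and the exception, the copper chaperone Cox19, lay in an H3K27me3 region instead. Of the 35 regions 0 were called by limma, edgeR or DESeq2. Over all H3K27ac regions these tools called 0.0822%, 0.304% and 0.019%. For each of the 3 lists, 0 called cannot be told from such shares. In this list 2 regions were higher and 1 lower at an unadjusted p-value under 0.05 in limma, and the median log2 fold change was 0.05. Cycs, cytochrome c, had 2.55 ± 0.605 in young and 1.93 ± 0.271 in old MSCs (SD, n = 3) with overlap. All 14 genes of the citric acid cycle had H3K27ac and none had H3K27me3, with 0 called by any of the 3 tools, 1 at an unadjusted p-value under 0.05 in limma and a median of 0.09. Idh3a, of the NAD-dependent isocitrate dehydrogenase, was at 1.03, 0.943 and 1.04 in young and 1.08, 1.53 and 1.14 in old libraries, without overlap (limma adjusted p = 0.489). Among 13 regulators, 12 had H3K27ac, 0 were called by any of the 3 tools, 1 reached an unadjusted p-value under 0.05 in limma (Hif1a, lower in old MSCs) and the median was -0.02. The exception was Ppargc1a, the coactivator of mitochondrial biogenesis, whose TSS lay in an H3K27me3 region of 206.5 kb (chr5:51519001-51725500) at 0.783 ± 0.0226 in young and 0.801 ± 0.0852 in old MSCs (SD, n = 3). Its relative Ppargc1b and the receptor gene Esrra carried both marks. Nrf1, at 1.54 ± 0.182 and 1.54 ± 0.336, and Tfam, the mitochondrial transcription factor, at 1.22 ± 0.169 and 1.43 ± 0.559, carried H3K27ac only. Gabpa shares the region of the complex V gene Atp5j, at 1.19 ± 0.137 and 1.16 ± 0.106 (SD, n = 3). Of the 7 H3K27me3 regions of the 3 lists 0 were called by limma, edgeR or DESeq2, and 0 reached an unadjusted p-value under 0.05 in limma, where 0.728% and 17.6% of H3K27me3 regions at a TSS did so in limma. For H3K27ac the 3 lists showed counts near the background of 7.83% at an unadjusted p-value under 0.05, with 5 of 61 regions (8.20%).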

How the data were processed

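CUT&RUN of H3K27ac and H3K27me3 was analysed in 12 libraries of 4 groups, taken from the sample labels. The labels' processing notes name Bowtie2, Picard and mm10 (GRCm38), without roles, and the region caller was not given in the sources used here. The publication supplied with the series does not report these libraries and was used for style only. For each mark the authors deposited 1 table of regions on a 500 bp grid, called over both ages, with a signal per library. The table names say RPKM, but the values are reads per library size (RPM) for a constant 0.5 kb, not divided by region length. In all 12 columns 100% of values were whole reads within a tolerance of 0.01, so the reads were recovered. The number of per-sample columns not used was 0.

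Regions were assigned to a gene when they overlapped the TSS (GENCODE vM21 basic) by 1 kb on each side. The genes and lists were chosen with earlier results of these data known. Signal was scaled by the median of ratios (RLE), 0.5 was added, and log2 values of all regions of a mark were fitted with limma 3.58.1 (R 4.3.3; trend and robust moderation, two-sided, no filter, no replicate block) and adjusted by Benjamini-Hochberg over the whole table. Calls required an adjusted p under 0.05. The added 0.5 draws fold changes on this log2(signal + 0.5) scale towards 0 where reads are few, compared with a smaller added value. For H3K27ac at Atp5g1, a region of few reads, the limma value was still larger in size than those of edgeR and DESeq2, given below. Density was the scaled signal times 0.5 divided by the length in kb. Outside called regions it was taken per library size, without the RLE scaling. The planned test had assumed RPKM and was kept. A divisor shared by the libraries would leave fold changes unaltered without the added 0.5, but with it they depend on the unit. For H3K27ac at Ndufa9 the log2 fold change was 0.5547 with 0.1 added and 0.4242 with 2 added, against 0.5207 with 0.5. edgeR 4.0.16 (quasi-likelihood) and DESeq2 1.42.0 on the recovered reads were alternatives, beside other scalings, pseudocounts of 0.1 and 2, a filter of 10 reads, other TSS windows and the omission of each library. The tests were checked on simulated data. Replicates differed beyond sampling noise in each pair (chi-square per degree of freedom 1.13 to 2.05). Depth limits single regions: those of OXPHOS genes held a median of 72.9 reads a library for H3K27ac. The SDs and standard errors measure the spread between libraries, and the floor of 3 reads covers counting error only.

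Named genes were those called, up to 4 per mark and direction with the largest fold change among regions without overlap, all isoforms of a subunit with paralogues, all genes without H3K27ac or with H3K27me3, 10 subunits standing for the complexes, and the lowest and highest in density. Other genes are examples chosen after their values were seen. The values of 1 gene that the rule names are not reported here.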

Additional observations from a re-analysis of the deposited data

How the results depend on the processing

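Of 88 H3K27ac regions 0 were called under all 18 alternatives, with 1 to 8 at an unadjusted p-value under 0.05 across them. Their median log2 fold change was -0.0977 on the signal as deposited and lay between -0.0244 and 0.047 when each library was left out in turn. For H3K27me3, 1 of 8 regions (Ndufa8) was called on the signal as deposited, by edgeR and without old replicate 1, and the omission of each library gave 0 to 1. The H3K27me3 median ranged from -0.2071 to -0.1131 with a library left out, and was -0.0241 over regions that held no gene outside the list. With the TSS itself in place of the window, 3 genes rather than 8 had an H3K27me3 region and 87 rather than 89 had H3K27ac. The 25 fold changes of single genes gave 375 values in all over the alternatives. Of these, 7 values in 3 genes changed sign, all for H3K27me3. Cox7c ran from -0.2046 to 0.1196 with a library left out, above 0 without old replicate 1. Cox8c became 0.0327 by edgeR, 0.0215 by DESeq2, 0.119 without young replicate 1 and 0.1565 without old replicate 2, and was -0.1227 without young replicate 3. Atp5k became -0.0028 on the signal as deposited and -0.0573 without old replicate 2, and was 0.3119 without old replicate 3. The cause was not tested. Of the H3K27ac values, without old replicate 2 those of Ndufa6, Cox7c, Uqcrfs1, Cox7a2 and Ndufa10 shrank to -0.2124, -0.1761, 0.0548, 0.0754 and 0.1577. Without young replicate 1 that of Cox8a was 0.1135, and without old replicate 3 that of Ndufa9 was 0.3343. For H3K27me3, without old replicate 3 the values of Atp5g1, Uqcrfs1, Cox6a2 and Ndufa10 were -0.1265, -0.1552, -0.0759 and -0.0299. The H3K27ac value of Atp5g1 was -0.38 by edgeR and -0.45 by DESeq2. Same-numbered old and young libraries deviated together by correlations of -0.0542 to 0.0656 (H3K27ac) and -0.0777 to 0.0434 (H3K27me3). Not every library correlated best with its own number. With 3 libraries per group and few reads in many regions, these values cannot show whether same-numbered libraries shared a batch. With the replicate block 0 OXPHOS regions were called, the medians stayed at 0.0198 and -0.1536, and calls over all regions rose from 26 to 81 (H3K27ac) and from 137 to 309 (H3K27me3). Depth limits the short regions: 17 H3K27ac regions held under 30 reads a library.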

Other observations

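Fold changes at the OXPHOS genes were larger, with larger errors, in the regions of fewest reads. In the 17 H3K27ac regions with a mean under 30 reads a library, among them those of Ndufa9, Cox7a1, Cox7c, Cox8b, Uqcrb, Uqcrc1, Ndufaf6 and Atp5g1, the median absolute log2 fold change was 0.26 and the median standard error 0.28. In the other 71 these were 0.08 and 0.14. Over all 88 regions the relation was weak, with a Spearman's rho of -0.18 between reads and absolute fold change, and it was -0.38 over 8408 regions at a protein-coding TSS. Short regions were also the denser ones. Spearman's rho between length and density was -0.39 over the 88 regions and -0.22 over 8408 regions at a protein-coding TSS. These are descriptions across regions that share their libraries, and density contains the length as its divisor.

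Young replicate 3 was the lowest of the 6 H3K27ac libraries in 29 of the 88 regions and the highest in 3. Old replicate 3 was the highest in 24 and old replicate 2, the shallowest library, the lowest in 17 and the highest in 18. The share of all region reads that fell on OXPHOS regions was 0.584% ± 0.0257 in young and 0.583% ± 0.0156 in old MSCs for H3K27ac (SD, n = 3). The same share of H3K27me3 reads was 0.358% ± 0.0217 for young libraries and 0.315% ± 0.0269 for old ones (SD, n = 3). That difference exceeds either SD, but old replicate 1, at 0.341%, lay above young replicate 1, at 0.336%. In every library most of these H3K27me3 reads fell on the Atp5g1 region, the domain with the Hoxb genes. The H3K27me3 share is thus largely that of a domain which lies mostly outside the OXPHOS gene.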
